A study of Mus musculus with 20 samples.

Results

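The mitochondrial ribosomal proteins were taken as every gene whose symbol in the probe table is Mrpl or Mrps followed by a number, measured by a probe set that names no other gene. In all, 74 such genes were followed among 17993 tested genes: 46 with an Mrpl symbol (large subunit) and 28 with an Mrps symbol (small subunit). Each had a single such probe set, and all 74 passed the signal filter, which kept genes above the median of the array on at least 4 of the 20 arrays. The genes nearest to the filter were Mrpl36, above the median on 14 arrays, and Mrpl33, on 19; the other genes were above it on all 20, and none lay just outside. Another 4 probe sets were left out because they name a second gene (Mrpl53, Mrpl30, Mrps6 and a second probe set for Mrps18b), and so were 4 pseudogene symbols (Mrpl23-ps1, Mrpl48-ps, Mrps36-ps1 and Mrps36-ps2).

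Mitochondria keep a ribosome of their own, descended from that of bacteria, which translates the few messages of the mitochondrial genome. These encode core subunits of the respiratory chain and of the ATP synthase. Its RNAs come from the mitochondrial genome, whereas all of its proteins are encoded in the nucleus, made in the cytosol and imported; some have bacterial homologues and others were added in the course of mitochondrial evolution. In the pancreas, mitochondrial ATP supports both enzyme synthesis in acinar cells and the coupling of glucose to insulin release in beta cells.

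The arrays profiled whole pancreas of C57BL/6J mice, either Iir -/- (lacking inceptor, a membrane protein that the series' title describes as counteracting insulin signalling in beta cells) or Iir +/+ controls. Tissue was taken at embryonic day 18.5 (E18.5; 5 knockout and 4 wild-type arrays) after the mothers had been starved for 2 h, or on the day of birth (P0; 6 knockout and 5 wild-type arrays) after the pups had been starved for 5 h. Sex was not determined; Y-linked genes averaged 4.20 to 4.44 on 15 of the arrays and 7.42 to 7.99 on the rest (P0 wild type 4, P0 knockout 4, wild types 1 and 4 of E18.5 and its knockout 5). Nothing in the labels ties an array to an animal or a litter, and the p-values therefore reflect only how far these samples spread, which may be technical. Age, length of starvation, whether mother or pup was starved, and the running sample number (1 to 12 at P0, 13 to 22 at E18.5) cannot be told apart.

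The inceptor gene, listed as Elapor1, had a log2 signal of 11.07 to 12.06 on the wild-type arrays and 5.58 to 6.50 on the knockout arrays, in the direction of every genotype label. The 12 acinar markers had mean log2 signals of 15.92 to 16.96 over the arrays, and 6 of them stood at the ceiling of the deposited values (19.93) on at least 1 array, 5 on all. Intestinal or muscle markers averaged above 7 on 5 arrays (knockouts 1, 2 and 4 and wild type 4 of E18.5, and P0 knockout 4), against array medians of 4.81 to 4.94. Liver markers averaged 6.96 to 12.91 over the arrays. Arrays of bulk tissue cannot tell fewer cells of a type from less RNA per cell.

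Promoters were examined because many of the genes fell together between the ages. RefSeq promoters of assembly GRCm38.p6, running from 250 bases before to 50 bases after the start, were matched for 65 of the 74 genes. The motif CCGGAAG, which ETS factors such as GABPA bind, stood on either strand in 23 of the 65 promoters (35.4%), against 11.89% of 17491 protein-coding promoters. It stood in 13 of the 27 matched genes that fell in knockouts and in 10 of the 38 others. The NRF1 palindrome was found in 3 promoters (4.6% against 1.32%) and a YY1 motif in 5 (7.7% against 0.97%). CACGTG, the E-box, stood in 5 (7.7% against 7.9%), and CCAAT, the NF-Y box, in 26 (40.0% against 39.03%). The promoters were not matched for base composition, and a match is a description, not a binding site.

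The promoters shown are those of 3 genes with large falls and the ETS motif, of Mrps18a, which holds both an ETS and a YY1 motif, and of Mrpl42, which fell steeply and held none of the NRF1, ETS or YY1 motifs. Capitals mark these motif letters, CTTCCGG being CCGGAAG read on the other strand. The windows are chr7:28741772-28742071 (reverse strand), chr3:95871465-95871764 (reverse strand), chr6:125191950-125192249 (forward strand), chr17:46110754-46111053 (forward strand) and chr10:95501900-95502199 (reverse strand), in that order.
Mrps12: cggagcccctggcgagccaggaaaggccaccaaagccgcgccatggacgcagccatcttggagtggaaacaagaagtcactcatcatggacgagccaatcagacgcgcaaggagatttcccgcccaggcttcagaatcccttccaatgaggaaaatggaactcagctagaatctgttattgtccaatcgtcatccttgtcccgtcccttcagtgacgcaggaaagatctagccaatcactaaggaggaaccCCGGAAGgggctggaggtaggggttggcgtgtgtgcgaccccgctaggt
Mrps21: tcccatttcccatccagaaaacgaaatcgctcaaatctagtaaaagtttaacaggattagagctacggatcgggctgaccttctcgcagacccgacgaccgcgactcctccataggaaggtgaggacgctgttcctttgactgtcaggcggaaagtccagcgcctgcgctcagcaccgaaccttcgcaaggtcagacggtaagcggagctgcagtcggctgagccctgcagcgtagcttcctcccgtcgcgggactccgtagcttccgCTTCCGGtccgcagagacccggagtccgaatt
Mrpl51: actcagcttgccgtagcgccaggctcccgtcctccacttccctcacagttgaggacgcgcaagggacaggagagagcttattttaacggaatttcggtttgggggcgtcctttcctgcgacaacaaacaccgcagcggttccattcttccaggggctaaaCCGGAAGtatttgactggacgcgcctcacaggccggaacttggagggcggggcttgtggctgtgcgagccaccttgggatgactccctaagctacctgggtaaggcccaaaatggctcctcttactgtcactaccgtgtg
Mrps18a: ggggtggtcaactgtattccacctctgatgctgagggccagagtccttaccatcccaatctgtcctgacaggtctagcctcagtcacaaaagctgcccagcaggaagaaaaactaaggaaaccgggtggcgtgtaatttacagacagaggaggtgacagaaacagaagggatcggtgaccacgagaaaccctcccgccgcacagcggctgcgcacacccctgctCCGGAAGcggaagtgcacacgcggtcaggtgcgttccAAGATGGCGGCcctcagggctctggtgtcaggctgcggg
Mrpl42: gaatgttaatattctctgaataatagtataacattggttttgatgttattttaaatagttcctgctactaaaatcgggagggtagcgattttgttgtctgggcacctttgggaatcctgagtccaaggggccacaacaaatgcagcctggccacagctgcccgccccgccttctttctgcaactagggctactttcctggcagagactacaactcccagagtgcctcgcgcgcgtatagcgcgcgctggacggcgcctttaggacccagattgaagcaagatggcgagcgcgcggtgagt

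Counted from 0 at the gene's first base, the ETS motif begins at position 1 in Mrps12, 18 in Mrps21 and -90 in Mrpl51. Of the 65 genes, 22 (33.8%) had a protein-coding neighbour reading the opposite way from a start within 1000 bases, against 7.5% of all 17491 promoters. Among 18 tested neighbours, 2 fell in knockouts between the ages (Sars2 and Ndufb5), beside 11.7% of all genes, and none rose. Mrpl46 and Mrps11, which start 42 bases apart, are each other's neighbour, so both enter the 22 genes and the 18 neighbours. Mrps12 was the single gene with a tested neighbour that fell together with it; this is Sars2, which encodes the mitochondrial seryl-tRNA synthetase and starts 147 bases away: Sars2 changed by -0.20 ± 0.06 (SE, limma adjusted p = 0.0223). Mrpl14 fell while Tmem63b, 131 bases away, changed by 0.14 (adjusted p = 0.266), and Mrpl21 fell while Ighmbp2, 32 bases away, changed by -0.02 (adjusted p = 0.822, both limma).

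Averaged over the 74 genes, the log2 signal was highest in E18.5 knockouts. Array means ran from 8.07 to 8.30 there (8.17 ± 0.09, SD, n = 5), from 7.89 to 8.08 in E18.5 wild types (7.98 ± 0.09, n = 4), from 7.78 to 8.02 in P0 wild types (7.91 ± 0.10, n = 5) and from 7.82 to 7.93 in P0 knockouts (7.89 ± 0.05, n = 6). Every E18.5 knockout array lay above every P0 array, while the E18.5 knockout and E18.5 wild-type ranges touched at 8.07 and 8.08. Both subunits showed this order: the Mrpl means were 8.15, 7.96, 7.88 and 7.86 and the Mrps means 8.21, 8.03, 7.95 and 7.93 in those 4 groups. Single arrays contributed unequally. E18.5 knockout 2 was the highest of its group for 34 of the 74 genes and E18.5 knockout 3 the lowest for 29. E18.5 wild type 4 was the highest of its group for 36 and E18.5 wild type 1 the lowest for 35. P0 wild type 5 was the lowest of its group for 29.

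**Figure D1:**
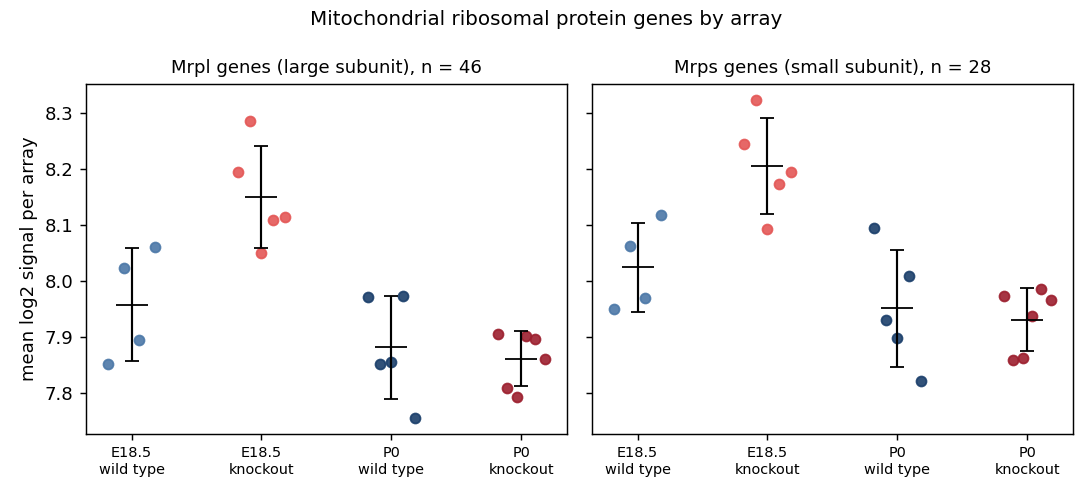
Mean log2 signal per array over the 46 Mrpl genes (left) and the 28 Mrps genes (right), 1 point per array, with the mean and SD of each group. E18.5 knockouts average 8.15 and 8.21, above the other 3 groups in both panels.

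From E18.5 to P0, 8 of the 74 genes fell in wild types and 32 fell in knockouts. The falls in knockouts reached 2.48-fold, and 19 of 46 Mrpl and 13 of 28 Mrps genes fell. Few genes went the other way. Mrps9 was the single gene that rose in wild types and Mrps31 the single one that rose in knockouts. A gene was called when its adjusted p in limma was under 0.05 over all 17993 genes.

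In wild types the 8 genes that fell are 10.8% of the 74, where 4.10% of all tested genes fell and 4.76% rose. The median change was -0.07 on the log2 scale, against 0.01 over all genes, and 44 of the 74 changes were below 0. The count was small and rested on few arrays: the 9 calls became 5 without E18.5 wild type 1, 4 without E18.5 wild type 2 and 5 without P0 wild type 3. In knockouts the 32 genes that fell are 43.2%, where 11.7% of all tested genes fell and 11.3% rose. There the median change was -0.22, against -0.0037 over all genes, and 58 of the 74 changes were below 0. P0 and E18.5 arrays did not overlap, with P0 lower, for 9 genes in wild types (5.36% of all genes) and 20 in knockouts (6.55% of all genes).

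**Figure D2:**
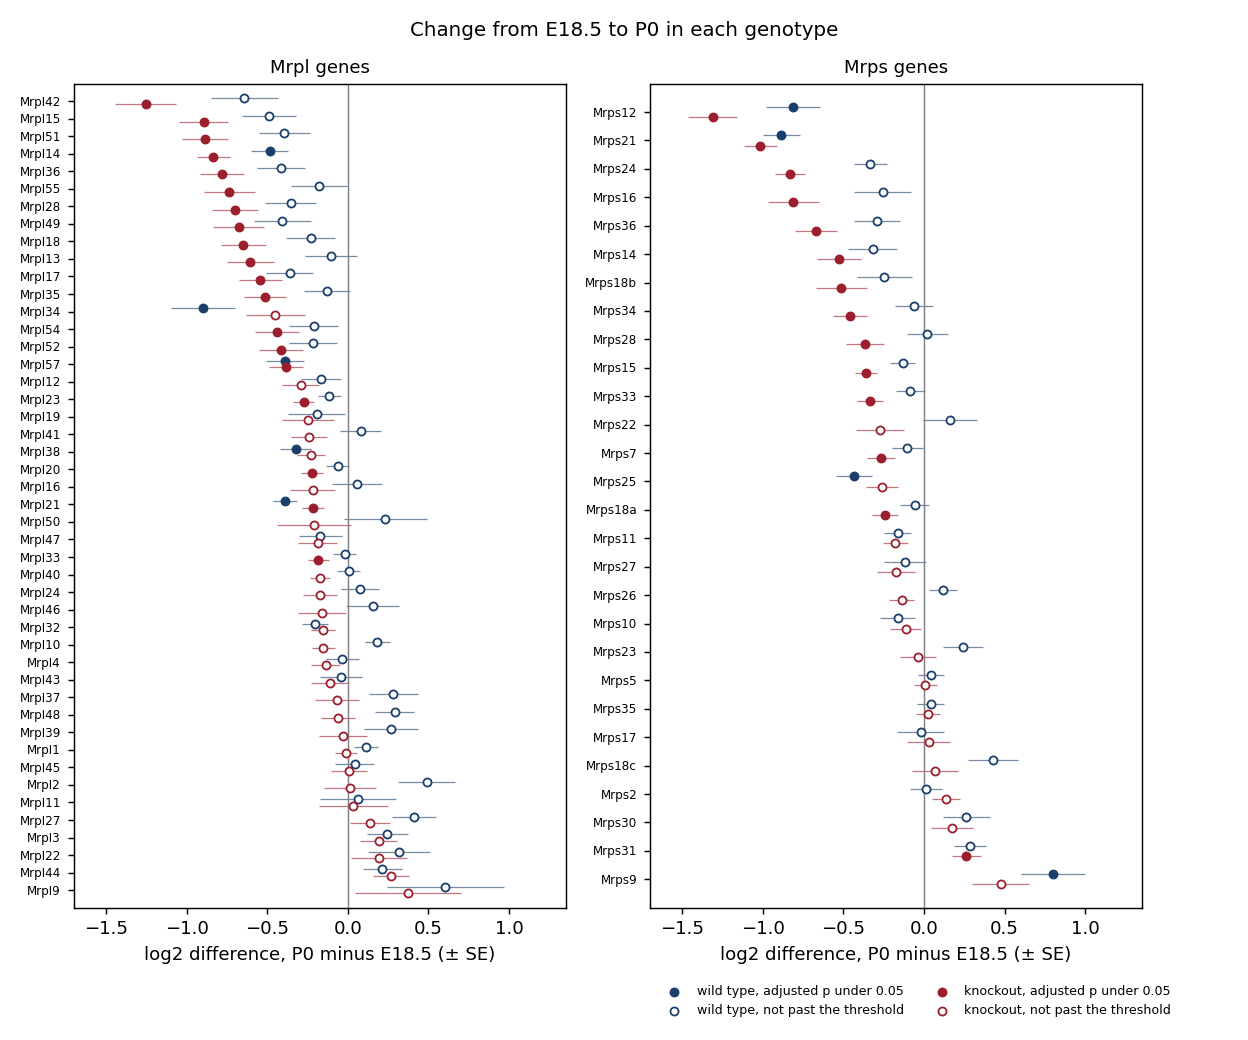
Log2 difference, P0 minus E18.5, with its SE for each Mrpl gene (left) and Mrps gene (right), in wild types (blue) and knockouts (red); filled points have a limma adjusted p under 0.05. In knockouts 32 genes lie left of 0 with filled points, from Mrps12 at -1.31 to Mrpl33 at -0.18.

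Mrps12, whose bacterial homologue lines the decoding site of the small subunit, had the largest fall in knockouts. Its log2 signal was 10.07, 9.97, 9.72, 9.54 and 9.71 on the E18.5 knockout arrays and 8.14 to 8.77 (median 8.48, n = 6) on the P0 knockout arrays, and 9.27, 9.86, 9.33 and 9.13 against 8.84, 8.90, 8.42, 8.53 and 8.23 in wild types. The ages did not overlap in either genotype. Mrps12 changed by -1.31 ± 0.15 in knockouts (SE, limma adjusted p = 2.78e-05), a fall of 2.48-fold, and by -0.81 ± 0.17 in wild types (adjusted p = 0.00690), a fall of 1.75-fold.

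Mrps21, a small-subunit protein with a bacterial homologue, fell in both genotypes. Its signal was 11.14, 11.28, 11.17 and 11.27 in E18.5 wild types against 10.71, 10.51, 10.02, 10.25 and 10.16 in P0 wild types. In knockouts it was 11.32, 11.70, 11.38, 11.24 and 11.40 at E18.5 and 10.30 to 10.50 (median 10.39) at P0. All 11 P0 arrays thus lay below all 9 E18.5 arrays. The change was -0.88 ± 0.12 in wild types (SE, limma adjusted p = 0.000371) and -1.01 ± 0.10 in knockouts (adjusted p = 1.11e-05).

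Mrpl42, a large-subunit protein without a bacterial homologue and the brightest of the 74 probe sets, was at 14.74, 15.12, 14.39, 14.87 and 14.26 in E18.5 knockouts and at 13.02 to 13.71 (median 13.46) at P0. Wild-type arrays read 14.13, 14.44, 14.20 and 14.38 at E18.5, then 14.08, 13.87, 13.17, 13.98 and 13.11 at P0. The ages were apart in both genotypes, narrowly in wild types, where 14.13 and 14.08 are the nearest arrays. The change was -1.25 ± 0.19 in knockouts (SE, limma adjusted p = 0.00021), and the -0.64 ± 0.21 in wild types missed the threshold (adjusted p = 0.0623).

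Mrpl14, which lies at the interface between the subunits and binds the assembly factor Malsu1, read 7.38, 7.58, 7.15, 7.38 and 7.42 in E18.5 knockouts and 6.29 to 6.91 (median 6.52) at P0. In wild types it read 6.90, 7.11, 7.04 and 7.09 and then 6.70, 6.54, 6.33, 6.55 and 6.64. No P0 array reached an E18.5 array of its genotype. The falls were -0.83 ± 0.10 (SE, limma adjusted p = 4.62e-05) and -0.49 ± 0.11 (adjusted p = 0.0137), the latter with an adjusted p of 0.0504 without E18.5 wild type 2.

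Mrpl15 and Mrpl51, large-subunit proteins with and without a bacterial homologue, complete the 5 largest falls in knockouts. Mrpl15 went from 9.94, 10.21, 9.71, 9.71 and 9.51 to 8.62 to 9.47 (median 8.84), a change of -0.89 ± 0.15 (SE, limma adjusted p = 0.000516). Mrpl51 went from 7.50, 8.04, 7.76, 7.64 and 7.40 to 6.56 to 7.38 (median 6.71), a change of -0.88 ± 0.14 (adjusted p = 0.000341, limma). P0 knockout 2, at 7.38, stood above the other P0 knockouts and just below the lowest E18.5 knockout. In wild types the changes of -0.49 and -0.39 did not pass the test (limma adjusted p = 0.0764 and 0.125).

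A few genes moved at least as far in wild types. Mrpl34, the homologue of a small bacterial large-subunit protein, read 7.19, 7.55, 7.23 and 7.31 in E18.5 wild types and 6.57, 6.52, 5.90, 6.66 and 6.45 in P0 wild types, a change of -0.90 ± 0.20 (SE, limma adjusted p = 0.0107). In knockouts E18.5 arrays of 7.03, 7.33, 7.44, 6.67 and 7.38 overlapped P0 arrays of 6.23 to 7.02 (median 6.90), and the change of -0.45 ± 0.18 did not pass (adjusted p = 0.0832, limma). Mrps25, a small-subunit protein without a bacterial homologue, changed by -0.43 ± 0.11 in wild types (SE, limma adjusted p = 0.0225) and by -0.26 ± 0.10 in knockouts (adjusted p = 0.0691). The wild-type call for Mrps25 was lost without E18.5 wild type 1 or 2 or P0 wild type 3 or 5, with limma adjusted p up to 0.0768.

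Mrps9, whose bacterial homologue reaches the peptidyl-tRNA site, rose in wild types from 7.38, 7.65, 7.65 and 8.51 to 8.52, 8.09, 8.90, 8.85 and 8.63. E18.5 wild type 4 stands inside the P0 range. The change was 0.80 ± 0.20 (SE, limma adjusted p = 0.0189), and the call was lost without E18.5 wild type 1, 2 or 3 or P0 wild type 3, with adjusted p up to 0.0771. In knockouts Mrps9 changed by 0.48 ± 0.18 (limma adjusted p = 0.0642). Mrps31, a small-subunit protein without a bacterial homologue, changed by 0.28 ± 0.10 in wild types (adjusted p = 0.0834) and 0.26 ± 0.09 in knockouts (adjusted p = 0.0432, both limma). Its call in knockouts was lost without any of 9 arrays taken 1 at a time (E18.5 knockouts 1, 3, 4 and 5, E18.5 wild type 3 and P0 knockouts 1, 3, 4 and 5), with limma adjusted p up to 0.0936.

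**Figure D3:**
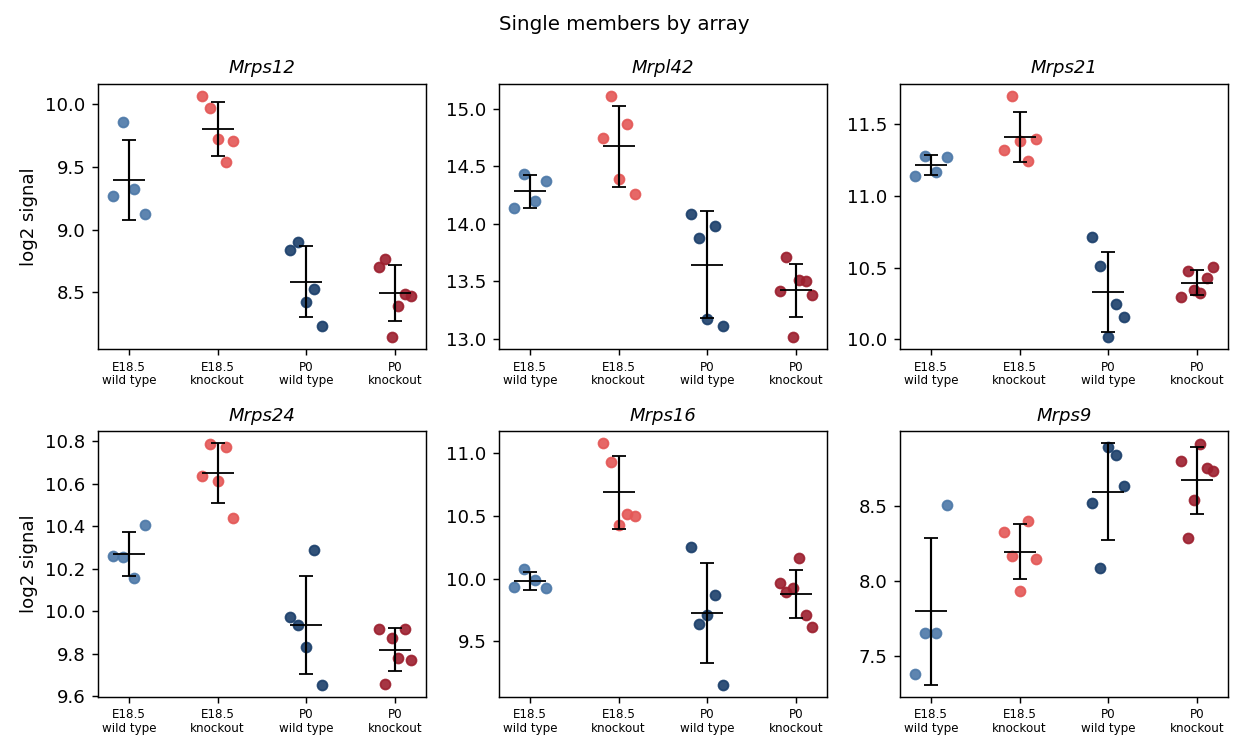
Log2 signal of 6 genes on each array, with the mean and SD of each group. Mrps12, Mrpl42 and Mrps21 are lower at P0 in both genotypes without overlap, Mrps24 and Mrps16 are highest in E18.5 knockouts, and Mrps9 is higher at P0.

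The lists of genes that fell overlapped in 5 genes, which are 62.5% of the 8 in wild types and 15.6% of the 32 in knockouts. They are Mrps12, Mrps21, Mrpl14, Mrpl21 and Mrpl57, the last named only because it is in this overlap. Mrpl21 lost its call in knockouts without E18.5 knockout 2, 3 or 4 or P0 knockout 1 or 3 (limma adjusted p up to 0.075), and in 5 fits that entered marker means or left out marker-rich arrays (adjusted p from 0.17 to 0.326). These comparisons share no array. Of the 32 genes that fell in knockouts, 31 also changed below 0 in wild types, and 37 of the 74 passed the test in neither genotype. For 64 of the 74 genes the change in knockouts was the more negative of the pair. That difference, tested as the knockout effect at P0 minus that at E18.5, passed for no gene (0 of 17993, a background of 0%), with 14 of the 74 (18.9%) below 0 and none above 0 at an unadjusted p under 0.05, where 4.16% of all genes were below and 2.82% above. The smallest limma adjusted p was 0.487, for Mrps24 (-0.50 ± 0.14), followed by Mrpl10 at 0.585 (-0.34 ± 0.11). A larger change with age in knockouts was therefore not shown for any single gene. The E18.5 knockout arrays enter the falls in knockouts, the 64 of 74 and the genotype difference at E18.5 alike. These tallies are therefore not separate findings.

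Among genes chosen for textbook roles, Mrpl12, Mrpl10 and Mrpl11, around the GTPase-binding stalk of the large subunit, did not pass in either genotype. The chosen genes do not stand for these parts as a whole. Of 4 listed genes of the stalk and its base, 1 outside the chosen set fell in knockouts, changing by -0.44. Of 8 listed exit tunnel genes, 2 outside the chosen set fell in knockouts. None of either list fell in wild types. Over all genes 11.7% fell in knockouts and 4.10% in wild types. Mrpl12, the stalk protein that also binds the mitochondrial RNA polymerase, changed by -0.29 ± 0.11 in knockouts (SE, limma adjusted p = 0.0689), Mrpl10 by -0.15 ± 0.07 (adjusted p = 0.137) and Mrpl11 by 0.03 ± 0.21 (adjusted p = 0.939). Mrpl45, which anchors the exit tunnel to the inner membrane, was at 0.01 ± 0.11 (limma adjusted p = 0.980), and Mrpl44, which carries an RNase III fold, at 0.27 ± 0.11 (adjusted p = 0.0880). Mrpl2 and Mrpl3, core proteins near the catalytic centre, changed by 0.01 and 0.19 in knockouts and by 0.49 and 0.25 in wild types, none passing. Mrpl41 changed by -0.24 ± 0.11 in knockouts (limma adjusted p = 0.139).

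The small subunit was as mixed. Mrps16, which has been linked to a human respiratory chain disorder, changed by -0.81 ± 0.16 (SE, limma adjusted p = 0.00144) and Mrps34, a small-subunit protein without a bacterial homologue, by -0.46 ± 0.11 (adjusted p = 0.00498) in knockouts. Mrps34 did not pass with the intestinal mean (limma adjusted p = 0.118), with the liver, intestinal and muscle means (0.167) or with the proliferation mean (0.0528) in the model, nor with the 5 arrays of high intestinal or muscle signal left out (0.213), and Mrps16 did not pass with the proliferation mean (0.0726). Mrps7, of the subunit head, changed by -0.27 ± 0.09 (limma adjusted p = 0.0355), a call lost without any of 6 arrays taken 1 at a time (E18.5 knockouts 2, 4 and 5 and P0 knockouts 2, 3 and 6; adjusted p up to 0.104). Mrps2 (0.14), Mrps5 (0.01) and Mrps22 (-0.27) did not pass. The 3 homologues of the same bacterial protein differed: Mrps18b changed by -0.51 ± 0.16 and Mrps18a by -0.24 ± 0.08, while Mrps18c, at 0.07 ± 0.14, did not pass (limma adjusted p = 0.0246, 0.0395 and 0.791). Both calls were fragile. Mrps18b lost its call without E18.5 knockout 1, 2 or 5 or P0 knockout 3 or 4 (limma adjusted p up to 0.0775), and Mrps18a without E18.5 knockout 1, 2, 4 or 5 or P0 knockout 2, 3, 4 or 6 (up to 0.0978). In the marker settings given above for Mrps34, limma adjusted p ran from 0.0746 to 0.26 for Mrps18b. It ran from 0.4 to 0.45 for Mrps18a and from 0.268 to 0.352 for Mrps7.

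Symbols do not always give the place of the protein. Mrps18a and Mrps30 sit in the large subunit, and Mrps30 changed by 0.17 ± 0.13 in knockouts (SE, limma adjusted p = 0.380). Mrps36 is now known as a component of the 2-oxoglutarate dehydrogenase complex, and it fell too, by 0.67 on the log2 scale (adjusted p = 0.00129, limma), a call lost with the intestinal mean (0.0606) or the liver, intestinal and muscle means (0.0508) in the model and without those 5 arrays (0.0863). With proteins placed by structure, 12 of 29 large-subunit proteins with a bacterial homologue fell in knockouts and 8 of 19 without one. In the small subunit, 8 of 15 with one fell and 3 of 10 without one. Over all genes 11.7% fell. Mrps18a and Mrps18b, described above as homologues of a bacterial protein, were counted in the classes without one, and both fell. The shares were not tested against each other.

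The dimmest probe sets say least. Mrpl33, Mrpl36 and Mrpl38 had mean log2 signals of 5.05, 5.17 and 5.56, close to the array medians. Mrpl36 nevertheless changed by -0.78 ± 0.14 in knockouts (SE, limma adjusted p = 0.00066). Mrpl33 changed by -0.18 ± 0.06 (adjusted p = 0.0460), a call lost in 17 of the 20 analyses that left out 1 array each, all but those without P0 knockout 5, P0 wild type 2 or P0 wild type 5 (limma adjusted p up to 0.111). At the bright end, Mrpl52 changed by -0.41 ± 0.13 in knockouts (limma adjusted p = 0.0328), a call lost without E18.5 knockout 1, 2, 3 or 5 or P0 knockout 2, 4 or 6 (up to 0.0776). With the intestinal mean or the liver, intestinal and muscle means in the model, limma adjusted p was 0.229 and 0.289 for Mrpl33. For Mrpl52 it was 0.26 and 0.316. With the proliferation mean Mrpl33 passed (0.0258) and Mrpl52 did not (0.133, limma).

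Between genotypes, no gene of the 74 passed the test at either age, and over all 17993 genes 2 (0.0111%) passed for E18.5 and 2 (0.0111%) for P0, in limma. At E18.5, however, the 74 genes lay mostly on one side. The knockout mean was the higher for 65 of them (41 of 46 Mrpl and 24 of 28 Mrps), where 56.9% of all genes were higher, and the median difference was 0.19 against 0.02 over all genes. At an unadjusted p under 0.05, 16 (21.6%) were higher and none lower, where 3.9% of all genes were higher and 1.55% lower. The same E18.5 knockout arrays enter these tallies and the falls with age in knockouts. Other lists leaned the same way. Knockouts were higher for 37 of 38 respiratory chain and ATP synthase genes, 16 of 18 mitochondrial translation factors, 12 of 13 proliferation genes and 6 of 7 tested intestinal genes. They were lower for 11 of 14 liver and 7 of 8 mesenchyme genes. The part of cell content was not tested. Among the 74, knockout and wild-type arrays did not overlap, with knockouts higher, for 8 genes, where 1.74% of all genes showed this: Mrpl1, Mrpl10, Mrpl14, Mrpl15, Mrpl23, Mrpl28, Mrps16 and Mrps24.

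Mrps16 showed the largest of these differences. It read 11.08, 10.93, 10.43, 10.52 and 10.50 in E18.5 knockouts and 9.93, 10.08, 9.99 and 9.92 in E18.5 wild types, a difference of 0.71 ± 0.18 (SE, limma adjusted p = 0.592). All 5 knockout arrays lay above all 4 wild-type arrays. Mrps24, the homologue of a bacterial protein at the entry of the messenger RNA, read 10.64, 10.79, 10.61, 10.77 and 10.44 against 10.26, 10.26, 10.16 and 10.41, a difference of 0.38 ± 0.10 (adjusted p = 0.592, limma). The groups were apart, narrowly so at 10.44 and 10.41. Mrpl10, of the stalk base, read 8.30, 8.46, 8.24, 8.29 and 8.20 against 8.02, 8.15, 7.85 and 8.04, a difference of 0.28 ± 0.08 (limma adjusted p = 0.686). The lower differences nearest to the threshold were those of Mrps25 (-0.12 ± 0.11), Mrpl34 (-0.15 ± 0.20) and Mrps11, none with an unadjusted p under 0.05.

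At P0 the 74 genes lay on both sides. Knockouts were higher for 35 of the 74 genes and lower for 39, the median difference was -0.0064 against 0.0054 over all genes, and at an unadjusted p under 0.05 there were 3 higher and 1 lower, where 5.04% of all genes were higher and 3.72% lower. Each of the 14 liver markers had the higher mean in P0 knockouts, by a median of 1.43, and none passed the test; their part in the values was not tested. Mrpl21 read 8.04, 7.98, 7.82, 7.72 and 7.73 in P0 wild types and 7.88 to 8.16 (median 8.12) in P0 knockouts, a difference of 0.21 ± 0.07 (SE, limma adjusted p = 0.433). Mrpl47, at the exit tunnel, read 7.77, 7.40, 7.70, 8.18 and 7.78 against 7.93 to 8.32 (median 8.10), a difference of 0.35 ± 0.12 (adjusted p = 0.475, limma). Both pairs of groups overlapped. Mrpl32, whose maturation depends on a protease of the inner membrane, differed by 0.18 (limma adjusted p = 0.542), and Mrps15, the homologue of a bacterial protein of the subunit body, was the lower gene, at -0.15 (adjusted p = 0.569).

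**Figure D4:**
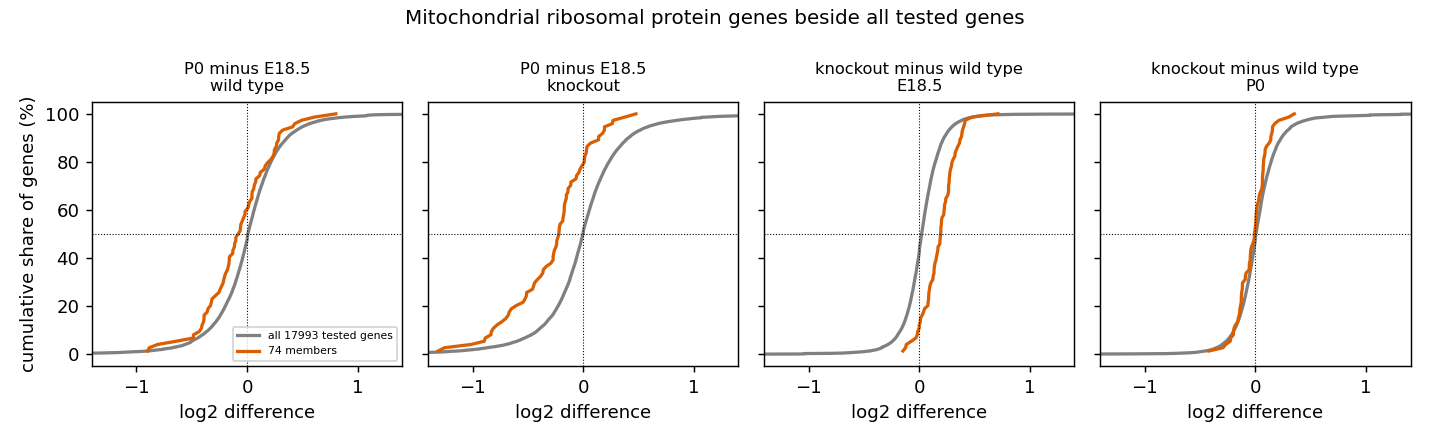
Cumulative share of genes (%) by log2 difference for the 74 genes (orange) and all 17993 tested genes (grey) in 4 comparisons. The orange curve lies to the left for P0 minus E18.5 in knockouts (median -0.22) and to the right for knockout minus wild type at E18.5 (median 0.19), and close to the grey curve at P0.

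Other genes of mitochondrial protein synthesis moved unevenly between the ages in knockouts. Of 5 mitoribosomal proteins under other symbols, 3 fell: Gadd45gip1, Chchd1 and Mrpl58, the last a release factor built into the large subunit that the probe table lists under its older symbol Ict1 and that is therefore not among the 74 (-0.64, -0.63 and -0.45, limma adjusted p = 0.00520, 0.00518 and 0.00817). Of 18 translation factors 5 fell, led by Tufm, the elongation factor that brings aminoacyl-tRNA (-0.97 ± 0.15, SE, adjusted p = 0.000277), and Oxa1l, the insertase that receives new proteins at the ribosome, rose (0.54 ± 0.09, adjusted p = 0.000607, limma). Of 18 aminoacyl-tRNA synthetase genes 5 fell and none rose, a share of 27.8% as for the translation factors that fell. Of 21 assembly factors 2 (9.5%) fell and 2 (9.5%) rose. Over all genes 11.7% fell and 11.3% rose, so the assembly factors were near that background. Malsu1, the partner of Mrpl14, was among the risers (0.49 ± 0.13, limma adjusted p = 0.0108), as was Eral1, which binds the small-subunit RNA (0.39 ± 0.09, adjusted p = 0.00613). Tufm fell and Oxa1l rose in wild types too (-0.69 and 0.67, limma adjusted p = 0.0168 and 0.00109).

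Of 38 respiratory chain and ATP synthase genes encoded in the nucleus, 26 (68.4%) fell in knockouts and 0 in wild types, with medians of -0.35 and -0.13. Ndufs8, of complex I, changed by -1.32 ± 0.20 and Cycs, cytochrome c, by -1.20 ± 0.23 in knockouts (SE, limma adjusted p = 0.000265 and 0.00146). Of 36 cytosolic ribosomal proteins 3 fell in knockouts and 0 in wild types, but 5 of them stood at the ceiling on at least 1 array and 4 on all, where a change would not show. Among 22 genes of ribosome assembly in the nucleolus 2 (9.1%) fell and 1 (4.5%) rose in knockouts. Over all genes 11.7% fell and 11.3% rose in knockouts, and 4.10% fell in wild types. The differences between lists were not tested.

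Among 13 regulators of mitochondrial biogenesis, Pprc1, a coactivator of the PGC-1 family, fell in both genotypes (-0.63 ± 0.11 in wild types and -0.62 ± 0.10 in knockouts, SE, limma adjusted p = 0.00374 and 0.000498). Ppargc1a, which encodes PGC-1 alpha, rose in knockouts (1.22 ± 0.36, adjusted p = 0.0194), as did Sirt1 (0.60 ± 0.12, adjusted p = 0.00132, both limma). Gabpa (0.11), Nrf1 (-0.19), Yy1 (-0.02) and Myc (0.37), whose motifs were counted in the promoters, did not pass in knockouts (limma adjusted p from 0.151 to 0.922).

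Markers of other cells also moved between the ages, some with the ribosomal genes and some against them. The intestinal epithelium list (11 genes with a probe set, 7 of them tested) averaged 5.32 to 7.46 in E18.5 knockouts, 5.23 to 7.28 in E18.5 wild types, 4.96 to 5.65 in P0 wild types and 5.04 to 5.70 in P0 knockouts, and 3 of its 7 tested genes fell in knockouts. The cell proliferation list averaged 8.24 to 8.75, 8.17 to 8.56, 7.58 to 8.50 and 7.95 to 8.30 in the same groups, and 8 of its 13 genes fell in knockouts, among them Mcm3, a subunit of the replicative helicase (-0.93 ± 0.21, SE, limma adjusted p = 0.00459). The acinar list averaged 16.58 to 16.94 in E18.5 wild types and 16.06 to 16.38 in P0 wild types. In knockouts it averaged 16.74 to 16.96 at E18.5 and 15.92 to 16.43 at P0. The ages did not overlap in either genotype, and 3 of its 12 genes fell in each. The other acinar genes moved little. The median change was 0.0 in wild types (2 above and 4 below 0) and -0.027 in knockouts (6 above and 6 below). On all arrays 5 of the 12 stood at the ceiling, where a change would not show. In knockouts 2 of 5 duct genes fell and 4 of 8 mesenchyme genes rose, where 11.7% of all genes fell and 11.3% rose. In wild types 4.10% of all genes fell. Of 9 macrophage and leukocyte genes, all changed above 0 in knockouts and 2 rose. Liver (12 of 14), endothelial (6 of 8) and neuron and Schwann genes (5 of 7) were mostly above 0 there too, with none called. Array signals have no true zero, so no marker can be called absent. The parts of acinar, duct, mesenchyme, macrophage, endothelial and neuronal content in the ribosomal protein falls were not tested.

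**Figure D5:**
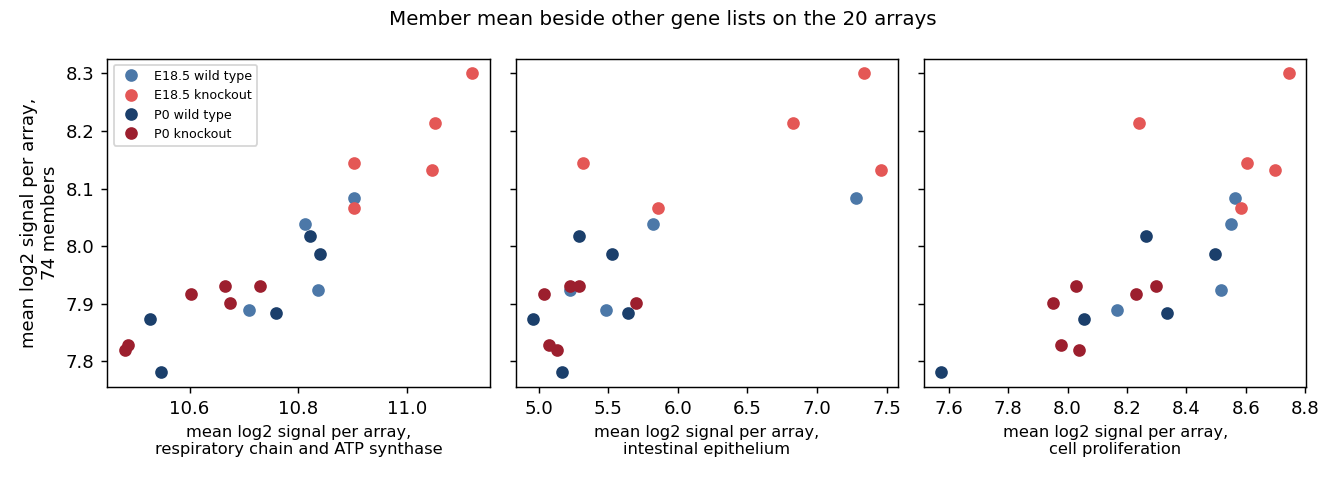
Mean log2 signal of the 74 genes on each of the 20 arrays against the array mean of 3 other lists: respiratory chain and ATP synthase, intestinal epithelium and cell proliferation. On the intestinal axis 4 arrays of E18.5 stand apart. These are knockouts 1, 2 and 4 and wild type 4, with ribosomal protein means of 8.21, 8.30, 8.13 and 8.08. E18.5 knockouts 3 and 5, at 5.86 and 5.32 on that axis, have ribosomal protein means of 8.07 and 8.14. The part of intestinal content in these means was not tested.

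With the intestinal marker mean in the model, the 33 genes called in knockouts between the ages became 12, where 7.56% of all genes were called, and with the proliferation mean 13, where 9.84% were; the model without either called 23.0% of all genes. With the 5 arrays of high intestinal or muscle signal left out, which kept 2 E18.5 knockout arrays, 4 were called, where 2.64% of all genes were called: Mrps12 (-1.20, adjusted p = 0.0163), Mrps21 (-0.98, 0.00851), Mrpl14 (-0.69, 0.0274) and Mrps24 (-0.70, 0.0218), by limma. Mrpl42 (-0.92, adjusted p = 0.0725), Mrpl15 (-0.63, 0.107), Mrpl51 (-0.78, 0.0598), Mrps16 (-0.64, 0.11) and Mrpl36 (-0.76, 0.0799) lost their calls there, in limma. Without those arrays 57 of the 74 genes were lower at P0 in knockouts, with a median of -0.17. At E18.5, 61 were higher in knockouts, with a median of 0.15. Both counts use the same 2 E18.5 knockout arrays, the latter against 3 wild-type arrays, and are not separate findings. In wild types 44 were lower at P0, with a median of -0.03. The shares over all genes were not taken for these counts.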

How the data were processed

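Total RNA of 20 pancreas samples was amplified, biotin-labelled and hybridised to Affymetrix arrays. The deposited values are log2 signals per probe set, made by the authors with RMA in Affymetrix Expression Console 1.4.1.46, per the submitters' processing notes; the array's genome build is not given in the sources used here. RMA normalizes between arrays, so an overall shift in RNA is not visible, and probe sets differ in brightness for reasons of their own, so levels were not compared between genes. The deposited values stop at 19.93; the 74 genes reached at most 15.115. The number of arrays limits the precision.

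Symbols came from the deposited probe table, updated through the RefSeq table of assembly GRCm38.p6. Of 65956 probe sets, 30604 named 1 gene. For each of 30063 genes the probe set with the highest mean was used, and the 17993 genes whose signal exceeded the median of the array on 4 or more arrays were tested. Files were read with Python 3.11.15 and pandas 2.3.3. All 20 arrays entered a linear model with a mean per group, using limma 3.58.1 under R 4.3.3 (16 residual degrees of freedom, 17.9 after moderation), and p-values, two-sided, were adjusted by Benjamini-Hochberg over all tested genes within each contrast. The fit was tested on simulated data with known changes.

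The genes and lists were chosen with earlier results of these data known. Named were the inceptor gene, a set of genes with textbook roles, the 5 largest called changes in each direction and contrast (or, with under 3 called, the 3 smallest p), the 3 brightest and dimmest genes, those nearest to the filter, up to 3 genes of each other list, and regulators. Genes of an overlap or of non-overlapping groups were named after their values were seen. Replicate numbers are running labels, and same-numbered arrays of different groups were not treated as pairs. Alternatives covered normalization, filters, array weights, covariates and left-out arrays. Promoters are RefSeq's, with 9 genes unmatched.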

Additional observations from a re-analysis of the deposited data

Results flagged for a closer look

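Of 180 sets of values examined (42 named genes in each of the 4 groups, which makes 168, and 12 sets of array means), 8 held an array whose gap to its neighbour passed Dixon's critical value for a group of that size; chance flags about 1 in 20 groups. Mrps31 on E18.5 knockout 2 was 7.818, where the other arrays of its group were 7.437 to 7.511. Mrpl3 on E18.5 knockout 5 was 7.868, against 7.505 to 7.594. Mrpl47 on E18.5 knockout 3 was 7.923, against 8.336 to 8.498, and Mrpl38 on E18.5 knockout 5 was 5.548, against 5.709 to 5.770. At P0, Mrpl51 on knockout 2 was 7.383, against 6.562 to 6.766. Mrps34 on P0 wild type 1 was 8.285, against 7.722 to 7.872. Mrps7 on P0 wild type 2 was 6.029, against 6.337 to 6.447, and Mrpl34 on P0 wild type 3 was 5.902, against 6.451 to 6.655.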

How the results depend on the processing

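No called result changed direction. Counts for the genotype comparisons and for their difference between the ages stayed at 0 called under every alternative run, and all medians moved by less than the spread between replicates. Called genes between the ages in wild types (9) became 14 with array weights, 5 with the compared groups fitted alone, 17 at adjusted p under 0.10 and 3 under 0.01, and ran from 4 to 12 when 1 array was left out. In knockouts (33) they became 13 with liver, intestinal and muscle means as covariates, 4 without the marker-rich arrays and 21 at adjusted p under 0.01, and ran from 24 to 34 when 1 array was left out. Of 3 alternatives chosen after seeing the data, the intestinal mean gave 12, the proliferation mean 13 and leaving out the E18.5 arrays knockout 2, knockout 4 and wild type 4 gave 21. The cause of these changes was not tested, though leaving arrays out leaves fewer samples. With 1 array left out, the medians ran from -0.10 to -0.03 (wild types between the ages), -0.23 to -0.20 (knockouts), 0.17 to 0.23 (genotypes at E18.5), -0.03 to -0.002 (genotypes at P0) and -0.28 to -0.20 (difference between the ages). The P0 genotype median took the other sign under median centring (0.017) and array weights (0.002). With the Y-linked level as a covariate, the counts were 10 in wild types and 33 in knockouts. With the replicate number as a block, the counts were 11 in wild types and 27 in knockouts. Same-numbered arrays correlated at -0.31 to 0.25 over 18 pairs, and at -0.03 to 0.25 between genotypes of the same age. Differently numbered arrays were not correlated, so these values cannot show whether the numbers pair the samples. The running sample number as a covariate was not run for the age comparisons, since the numbers of the ages do not overlap, and the compared groups alone give no value for the difference between the ages. Other scalings moved the median of all genes by at most 0.03. For single named genes, 171 values lost and 55 gained a call under an alternative, and 7398 kept their side.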

Other observations

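A list of mitochondrial chaperones and proteases, which fold and turn over imported and newly made proteins, fell in part. Between the ages 6 of 13 (46.2%) fell and 1 rose in knockouts, where 11.7% of all genes fell and 11.3% rose. In wild types 1 fell and 1 rose (7.7% each), where 4.10% of all genes fell and 4.76% rose. Hspd1, the matrix chaperonin, changed by -0.65 ± 0.13 in knockouts (SE, limma adjusted p = 0.00200), and its partner Hspe1 by -0.42 ± 0.08 (adjusted p = 0.00126, limma). Trap1, the matrix HSP90, fell in wild types (-0.40 ± 0.11, adjusted p = 0.0302) and knockouts (-0.38 ± 0.10, adjusted p = 0.00967, both limma). Lonp1, the matrix protease, rose in wild types (0.47 ± 0.14, limma adjusted p = 0.0424) and changed by 0.31 ± 0.12 in knockouts (adjusted p = 0.0827).

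Of 11 genes that copy, package and transcribe the mitochondrial genome, 2 fell in knockouts, Mgme1 and Top1mt (-0.30 ± 0.08 and -0.30 ± 0.09, SE, limma adjusted p = 0.0145 and 0.0301), and none passed in wild types. The 2 are 18.2% of the list, where 11.7% of all genes fell in knockouts. Tfam, which packages mitochondrial DNA, changed by 0.08 ± 0.14 in wild types and 0.10 ± 0.12 in knockouts (limma adjusted p = 0.774 and 0.631).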
